A study of Mus musculus with 35 samples.

Results

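The genes described here are 8 genes of the cytotoxic granule and of the cytotoxic lymphocyte: Prf1, Gzma, Gzmb, Gzmm, Ctsw, Crtam, Klrd1 and Ccl5. They were chosen by name, as the probe sets whose only gene in the annotation of the Affymetrix MG-U74Av2 array is a member of this list. Each of the 8 genes had 1 probe set, of 10833 probe sets with a single gene, and their levels were followed over all 35 arrays of the study. The ten-cell experiment measured 3 populations of C57Bl/6 mouse bone marrow cells. LSP (samples A, B and M) and USP (samples N, O and Z) are cells from the lower and the upper part of the side population (SP), the cells that pump out Hoechst dye, sorted for Sca-1 and against Gr-1, and CD8 (samples B, C and D) are T lymphocytes sorted for CD3 and CD8. The single-cell experiment measured 12 SP cells, each alone, and 5 single-cell-equivalents (SCE), which are aliquots of 1 lysate of 40 SP cells. The mice carried the CD45.1 allele and were 7 to 9 weeks old per the study's methods, and the labels give them as male for all groups but USP, for which they give no sex. The labels give no treatment.

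Each ten-cell sample is a pool of 4 amplifications of 10 cells and was run on 2 arrays, which were averaged and count as 1 sample. Each sort used marrow of 1 mouse, and whether 2 samples came from the same animal is not given, so the p-values cover the spread of these samples, which may be partly technical. In a pool, fewer cells with a transcript and less RNA per cell cannot be told apart. The deposited values are linear intensities, scaled on all 35 arrays to a trimmed mean between 242.3 and 248.1, and 9 of the 12 SP arrays hold between 24.6% and 32.1% negative values, while all CD8 arrays hold positive values alone. Levels are given as log2 of the intensity, and ten-cell levels under 7 were set to a floor of 7, so that a fold against a population with all samples at the floor is a lower bound. In the single-cell experiment no floor was set, and a log2 level of 9 was taken as detection.

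Cytotoxic lymphocytes kill through secretory granules. Perforin, the product of Prf1, opens pores in the membrane of the target cell, and granzymes, a family of serine proteases, enter and cleave proteins there, which leads to the death of the target. Cathepsins mature the granzymes, serglycin holds them in the granule, and a release machinery of Rab, SNARE and Munc proteins carries the granule to the membrane. Naive CD8 T cells hold few granules, and memory and effector cells more, and hematopoietic stem cells are not known for them.

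Of the 8 genes, 5 were higher in CD8 than in SP samples: Prf1, Gzmm, Ctsw, Crtam and Klrd1 passed at an adjusted p under 0.05, by limma over 6823 probe sets, of which 205 (3.0%) were higher in CD8 and 193 (2.83%) lower, 398 (5.83%) in all. The same 5 genes had all 3 CD8 samples above all 6 SP samples, which was so for 394 (5.77%) of the probe sets tested. Ccl5 was high in all CD8 samples but also in 2 of the 6 SP samples, and Gzma was above the floor in 1 CD8 sample, and neither passed. Gzmb lay at the floor on all 18 ten-cell arrays and was not tested. Of the 7 genes tested, all but Ccl5 entered the test through CD8 arrays alone, so their direction was fixed by that entry and their number is no support for it. With all 12422 probe sets in the test, 119 (0.958%) were higher in CD8, and Prf1, Ctsw, Crtam and Klrd1 were among them.

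**Figure D1:**
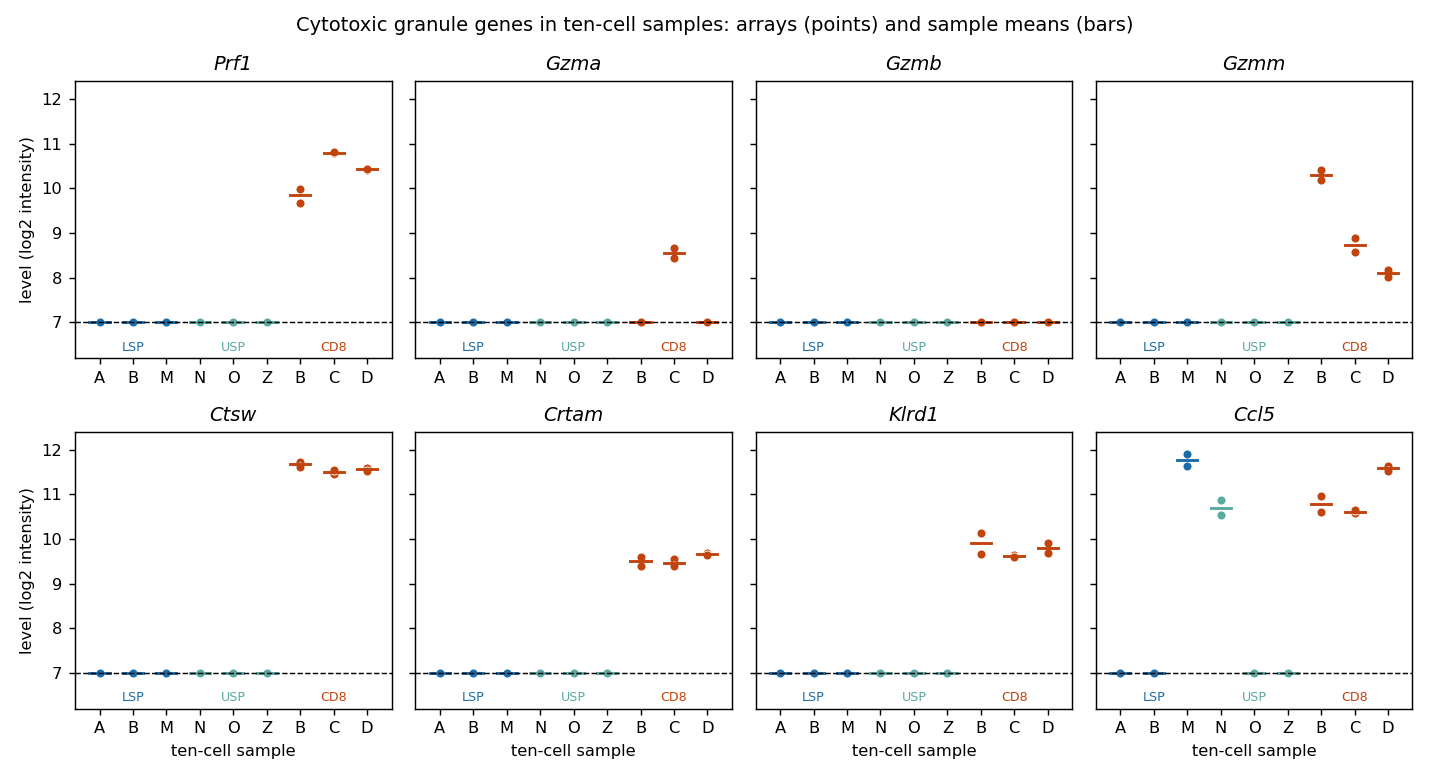
Levels of the 8 genes (log2 of the deposited intensity) in the 9 ten-cell samples, named by letter and coloured by population (LSP, USP, CD8). Points are arrays, bars are sample means and the dashed line is the floor of 7. Prf1, Gzmm, Ctsw, Crtam and Klrd1 lie above the floor in the CD8 samples alone, Gzma in CD8 sample C alone, Gzmb nowhere, and Ccl5 in the CD8 samples and in LSP sample M and USP sample N.

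Prf1, the gene of perforin, gave intensities of 1017.0 and 820.7 on the arrays of CD8 sample B, 1766.1 and 1793.7 in C, and 1368.7 and 1382.0 in D. On the 12 SP arrays its intensity lay between -74.4 and 20.5. The groups did not overlap, and the 3 CD8 samples spanned 0.96 on the log2 scale. Duplicate arrays, which share 1 amplified pool and so hold no amplification error, differed by at most 0.31, and the part of amplification in the span between samples was not tested. The mean level was 10.35 ± 0.49 (SD, n = 3) in CD8 samples, at least 10.2-fold over SP, whose 6 samples were all at the floor (log2 difference 3.35, standard error 0.20, adjusted p = 9.21e-05 by limma).

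The 3 granzyme genes were above the floor in 3, 1 and 0 of the CD8 samples. Gzmm encodes granzyme M, a protease that cleaves after methionine and is best known from natural killer (NK) and other innate-type killer cells. Its intensities were 1348.4 and 1164.4 in CD8 sample B, 379.5 and 472.8 in C, and 290.6 and 257.6 in D, and between -73.7 and 12.2 on the SP arrays. All CD8 samples were above all SP samples, with sample B standing 4.58-fold over sample D, while duplicate arrays differed by at most 1.25-fold. The mean level in CD8 samples was 9.04 ± 1.13 (SD, n = 3), at least 4.11-fold over SP (log2 difference 2.04, standard error 0.43, adjusted p = 0.0421 by limma). This call is close to the threshold. It was lost without any of the 6 SP samples (adjusted p between 0.0719 and 0.0811 without LSP A, LSP B, LSP M, USP N, USP O or USP Z), without CD8 sample C (0.101), with a floor of 8 (0.258), with no filter (0.118) and on arrays with positive values alone (0.294), with the difference above 0 in each.

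Gzma encodes granzyme A, a tryptase of T and NK cell granules. Its probe set is of a kind (_s_at) whose probes match more than 1 transcript, so its signal is not certain to be Gzma alone. It gave 406.6 and 344.0 on the arrays of CD8 sample C, but between 2.4 and 41.0 on the other 4 CD8 arrays and between -7.3 and 64.0 on the SP arrays. CD8 sample C alone was high, at a log2 level of 8.55, and both of its arrays show it. The difference of 0.52 between the mean levels of CD8 and SP samples (standard error 0.35) did not pass (adjusted p = 0.52 by limma). Gzmb, the gene of granzyme B, which activates caspases and is made by activated killer T cells, had intensities of at most 41.8 on CD8 arrays and 60.4 on SP arrays, all under the floor, so no difference could be measured.

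The start-site windows of Prf1 and of the granzyme genes are printed here because these genes act in 1 pathway and were above the floor in unequal numbers of samples, with Prf1 and Gzmm above the floor in 3 CD8 samples, Gzma in 1 and Gzmb in none. The windows are from RefSeq (GRCm38.p6), 250 bases before to 50 after a start, 5′ to 3′ on the gene's strand, for 4 of the 8 genes. Gzmm has 2 starts there. Capitals mark matches, on either strand, to TGTGGT (the core of RUNX sites), AGGTGTG (T-box) and TGANTCA (AP-1).
Prf1, chr10:61297586-61297885 (+ strand): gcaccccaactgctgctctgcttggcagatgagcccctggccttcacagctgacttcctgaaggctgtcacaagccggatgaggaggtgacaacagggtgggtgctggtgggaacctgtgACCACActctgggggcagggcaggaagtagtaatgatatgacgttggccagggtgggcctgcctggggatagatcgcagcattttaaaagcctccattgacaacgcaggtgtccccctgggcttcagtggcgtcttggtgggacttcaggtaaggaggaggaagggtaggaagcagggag
Gzmm, chr10:79688770-79689069 (+ strand): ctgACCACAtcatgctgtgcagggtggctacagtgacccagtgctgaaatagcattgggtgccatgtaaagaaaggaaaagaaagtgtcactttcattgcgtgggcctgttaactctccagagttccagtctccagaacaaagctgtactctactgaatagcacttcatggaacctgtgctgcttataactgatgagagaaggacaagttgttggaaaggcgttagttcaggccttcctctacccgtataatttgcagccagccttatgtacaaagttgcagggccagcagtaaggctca
Gzmm, chr10:79693576-79693875 (+ strand): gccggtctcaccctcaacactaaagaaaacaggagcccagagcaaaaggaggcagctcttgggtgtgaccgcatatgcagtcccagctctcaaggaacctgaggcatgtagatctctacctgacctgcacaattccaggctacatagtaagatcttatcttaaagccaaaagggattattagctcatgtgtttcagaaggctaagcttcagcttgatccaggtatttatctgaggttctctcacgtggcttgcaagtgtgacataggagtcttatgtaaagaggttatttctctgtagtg
Gzma, chr13:113100932-113101231 (- strand): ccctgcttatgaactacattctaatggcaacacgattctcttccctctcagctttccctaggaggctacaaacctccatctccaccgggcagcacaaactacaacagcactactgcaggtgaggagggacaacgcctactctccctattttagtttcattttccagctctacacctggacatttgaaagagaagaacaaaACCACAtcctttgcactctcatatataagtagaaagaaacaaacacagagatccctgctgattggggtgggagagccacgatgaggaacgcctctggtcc
Gzmb, chr14:56262285-56262584 (- strand): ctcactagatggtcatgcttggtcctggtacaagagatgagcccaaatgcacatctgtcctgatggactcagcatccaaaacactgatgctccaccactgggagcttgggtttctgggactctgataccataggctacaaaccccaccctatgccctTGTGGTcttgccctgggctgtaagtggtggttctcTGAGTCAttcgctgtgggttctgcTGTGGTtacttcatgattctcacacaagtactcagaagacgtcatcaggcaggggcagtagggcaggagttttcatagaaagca
TGTGGT was in 4 of these 5 windows, against 16.8% of 32851 windows of the same length. The window of Gzmb had 2 such matches and 1 match to TGANTCA, a motif in 7.81% of all windows that reads the same on both strands, and its matches do not overlap. AGGTGTG was in none of the 5, against 5.84% of all windows. These matches are letters in a window and were not tested for binding.

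Ctsw encodes cathepsin W, a cysteine protease of the papain family known from cytotoxic T cells and NK cells. Its intensities in the CD8 samples were 3398.2 and 3142.6 (B), 2822.7 and 2985.6 (C) and 3091.9 and 2943.5 (D), and on the SP arrays they ran from -64.7 to 114.5. The 3 CD8 samples were within 1.13-fold of each other, close to the 1.08-fold by which duplicate arrays differed at most. The mean level was 11.58 ± 0.09 (SD, n = 3) in CD8 samples, at least 23.9-fold over SP (log2 difference 4.58, standard error 0.08, adjusted p = 3.41e-07 by limma).

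Of the 2 receptors, Crtam encodes a surface protein of the immunoglobulin family that marks a cytotoxic state of T cells after activation and binds Cadm1 on other cells. Its intensities were 778.6 and 675.0 in CD8 sample B, 752.7 and 668.8 in C, and 825.7 and 795.7 in D, against -108.9 to 28.7 on SP arrays. No SP array came near the CD8 arrays, and the CD8 samples differed by no more than duplicate arrays did (0.19 against 0.21 on the log2 scale). The mean level was 9.55 ± 0.10 (SD, n = 3), at least 5.84-fold over SP (log2 difference 2.55, standard error 0.08, adjusted p = 3.21e-06 by limma).

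Klrd1 encodes CD94, a lectin-like chain that pairs with NKG2 chains such as Klrc1 on NK cells and some CD8 T cells and recognises Qa-1, the product of H2-T23. It gave 813.9 and 1130.0 in CD8 sample B, 798.5 and 777.2 in C, and 828.4 and 953.6 in D, against -3.1 to 72.0 on SP arrays. The groups did not overlap, and the CD8 samples again lay within the difference of duplicate arrays (0.28 against 0.47). The mean level was 9.77 ± 0.14 (SD, n = 3), at least 6.84-fold over SP (log2 difference 2.77, standard error 0.09, adjusted p = 3.23e-06 by limma). Among 4950 probe sets with any CD8 array over the floor, the median range over the 3 CD8 samples was 0.84, and 18.6% had a range of at least 2, as Gzmm had with 2.20.

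Ccl5 encodes the chemokine RANTES, which memory CD8 T cells store and secrete and which draws leukocytes. Its intensities in the CD8 samples were 1556.5 and 1984.4 (B), 1532.8 and 1598.8 (C) and 3185.5 and 2942.7 (D). LSP sample M gave 3199.5 and 3829.9 and USP sample N gave 1869.5 and 1477.7, while the other 8 SP arrays lay between 9.6 and 87.3. The SP samples thus fell in 2 kinds, 4 at the floor and 2 within or above the range of the CD8 samples, and both arrays of each sample agree on which. The mean level was 10.99 ± 0.52 (SD, n = 3) in CD8 samples, 8.59 ± 2.76 in LSP samples and 8.23 ± 2.14 in USP samples (n = 3 each), and the difference of CD8 over SP, 2.58 with a standard error of 1.34, did not pass (adjusted p = 0.394 by limma). It passed on arrays with positive values alone (adjusted p = 0.0261), which keep 1 LSP sample (B) and 1 USP sample (Z) and leave out the other 4 SP samples, and did not pass without LSP sample M (0.108) or USP sample N (0.23) alone.

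The 2 SP samples with Ccl5 were checked for T-cell markers. In USP sample N all 12 probe sets of the T-cell list (Cd3d, Cd3e, Cd3g, Cd247, Cd8a, Cd8b1, Cd4 and Zap70) were at the floor. Their summed intensity was 291.2, between the 263.6 of USP sample O and the 367.6 of USP sample Z. In LSP sample M Cd3e had a level of 8.59, 1 of 3 Zap70 probe sets was at 7.33 and the others were at the floor, and the sum was 674.7, against 190.0 and 319.2 in LSP samples A and B and 24957.8 to 26946.7 in CD8 samples. Eomes, a T-box factor of memory CD8 T cells and NK cells, had a level of 11.13 in LSP sample M by 1 of its 2 probe sets and lay at the floor in the other SP samples. In USP sample N Il18rap, a subunit of the interleukin 18 receptor, was at 8.23, and Cd79b of the B-cell list at 9.57. The other probe sets of the B-cell list, of Cd79a, Ms4a1 and Blnk, were at the floor in USP sample N. Of the other transcription factors and cytokine receptors, Stat4 was at 9.08 and Prdm1 at 7.60 there, and the rest were at the floor. Cd79b was also at 9.85 in USP sample O, 9.11 in LSP sample B and 7.39 in USP sample Z. Ccl5 was at the floor in USP samples O and Z and in LSP sample B. Cd79b was at the floor in LSP sample M, which had Ccl5, and in LSP sample A, which did not. The part of other cells in the Ccl5 levels of LSP sample M and USP sample N was not tested.

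The limma errors of the genes at the floor in SP pool the spread of the 3 CD8 samples with that of 6 SP samples set to the same value, which makes them smaller than the CD8 spread alone would where that spread is wide, as for Gzmm. The adjusted p of these genes rests in part on the floor.

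Between LSP and USP none of the 8 genes passed by limma, where 7 (0.103%) of the 6823 probe sets passed at an adjusted p under 0.05 and 409 at an unadjusted p under 0.05. All 8 genes but Ccl5 were at the floor in all 6 samples, so their LSP and USP levels have no order. For Ccl5 the difference was 0.36 with a standard error of 1.55 (adjusted p = 1 by limma, unadjusted p = 0.824), and its sign turned when LSP sample M (-1.23), USP sample O or USP sample Z (-0.26 each) was left out.

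**Figure D2:**
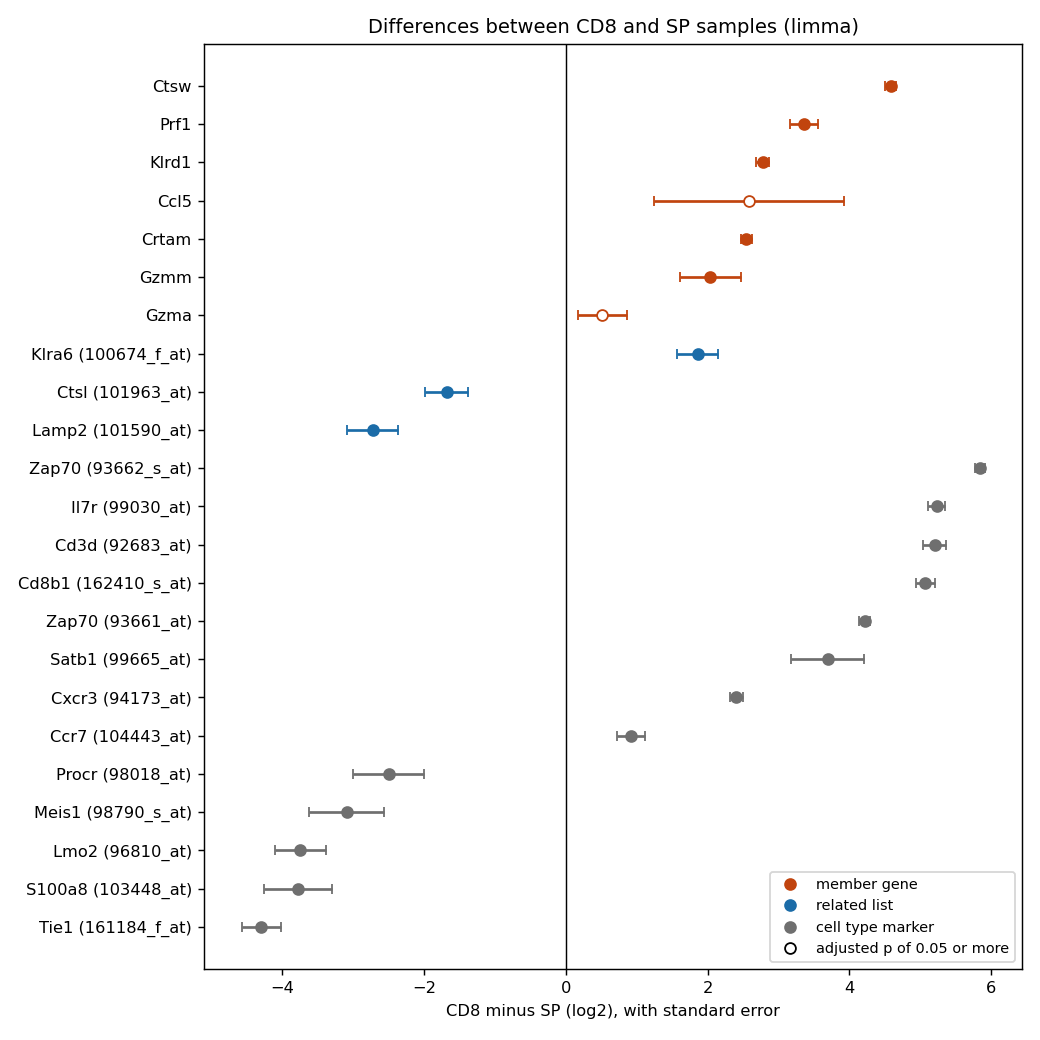
Difference of the mean log2 level of CD8 samples (n = 3) over that of SP samples (n = 6), with the standard error from limma, for the 7 granule genes tested (orange), genes of related lists that passed (blue) and cell type markers that passed and were named by rule (grey). Filled points passed at an adjusted p under 0.05; Ccl5 and Gzma did not, and Ctsl and Lamp2 lie to the left, higher in SP.

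The CD8 samples carried the markers of their sort. Of 12 probe sets of T-cell genes, 9 were tested and 8 were higher in CD8, with Zap70, a kinase of T-cell receptor signalling, at a difference of 5.84 by 1 of its probe sets (adjusted p = 1.23e-07 by limma). Over all 6823 probe sets tested, 205 (3.0%) were higher in CD8. Of the 8, all but that of Cd3e entered the test through CD8 arrays alone, so their direction was fixed by that entry. The same holds for Il7r, Ccr7 and Cxcr3 below. Of 5 probe sets of naive T-cell genes, 3 were higher: Il7r, the interleukin 7 receptor (difference 5.23), Satb1, a chromatin organiser of T cells (3.69), and Ccr7, a homing receptor (0.92, adjusted p = 0.0421 by limma). The Ccr7 call was lost without any 1 of the 6 SP samples (adjusted p between 0.0729 and 0.0814), without CD8 sample C (0.147) or D (0.107), with the sample as a random block (0.0508), with a floor of 8 (0.601, difference 0.13), with no filter (0.103) and on arrays with positive values alone (0.276). Of 8 of effector or memory T-cell genes, Cxcr3, a chemokine receptor of memory and effector T cells, was higher (difference 2.40, adjusted p = 7.56e-06 by limma), while the CD8 levels of Cd44, Il2rb and Klrg1 were all at the floor. All 5 probe sets of NK markers (Ncr1, Klrk1, Itga2 and Fcgr3) lay at the floor on every ten-cell array, with summed intensities of 129.0 to 179.1 in CD8 and 77.6 to 140.0 in SP samples.

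Some genes of other cells were above the floor in 1 or 2 of the 3 CD8 samples. Of the B-cell list, Ms4a1 had a level of 12.78 by 1 of its 2 probe sets and Cd79a of 9.56 in CD8 sample B, and Cd79b of 10.12 in B and 10.94 in C, and the summed intensity was 9047.8, 2043.6 and 179.6 in B, C and D, against 59.6 to 1411.8 in SP samples. None of the 3 B-cell probe sets tested passed. Gzmm, highest in sample B, ran in the order of this sum, with levels of 10.29, 8.73 and 8.10, and the part of other cells in it was not tested. The order is not particular to B-cell genes. It also held for the NK-type receptors Klra6 and Cd160, described below, and for 1 of 2 Eomes probe sets. Prf1, Gzmk and the other Eomes probe set did not have it. An order of 3 samples carries no test. Without sample B the difference of Gzmm was 1.41 and passed (adjusted p = 0.00978 by limma). Of the granulocyte and monocyte list, Lyz2 was at 10.01 in CD8 sample D by 1 of its 2 probe sets and at the floor in B and C. The rest of that list was at the floor in D, while S100a8 was at 7.94 and S100a9 at 7.69 in B. The sum was 559.8, 186.6 and 1274.0 in B, C and D, against 1919.4 to 6773.2 in SP samples. Of the 5 probe sets tested in that list, S100a8, a calcium-binding protein of granulocytes, was lower in CD8 (difference -3.77, adjusted p = 0.00572 by limma). Of 12 probe sets of mast cell and basophil genes 1 was tested and did not pass. All 8 probe sets of stem cell markers lay at the floor in the 3 CD8 samples, so they entered the test through SP arrays alone, which fixed their direction. Of these, 5 were lower in CD8, as were 193 (2.83%) of all 6823 tested. Lmo2, a regulator of blood stem cells, had a difference of -3.74 and Tie1, an endothelial and stem cell receptor, of -4.29 by 1 probe set each. Their other probe sets, at -1.93 and -1.60, did not pass (adjusted p = 0.221 and 0.265 by limma).

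**Figure D3:**
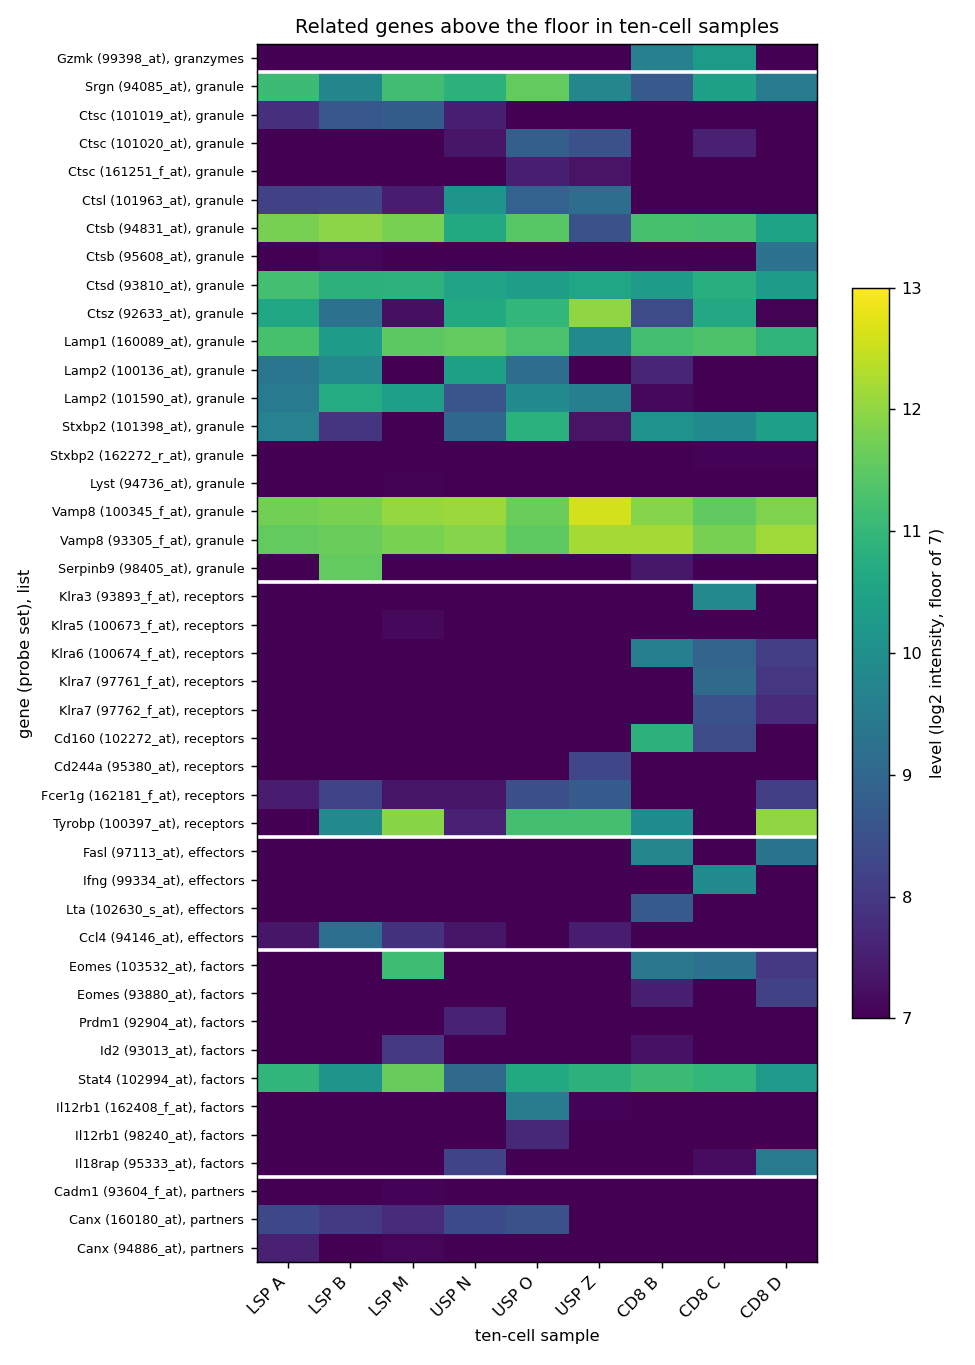
Levels (log2 intensity, colour scale from the floor of 7 to 13) of 43 related probe sets with any ten-cell sample over the floor, in columns for the LSP, USP and CD8 samples and in rows by list, separated by white lines. Gzmk, Cd160, Fasl, Ifng and several Klra rows are above the floor in 1 to 3 CD8 samples and at the floor in SP, while the rows of Srgn, Ctsd, Lamp1 and Vamp8 are above it in all 9 samples.

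Of the other granzymes, 5 genes had 7 probe sets, and Gzmk alone was above the floor. Gzmk encodes granzyme K, a tryptase of memory-type CD8 T cells, and had levels of 9.62 in CD8 sample B and 10.26 in C and lay at the floor in D and in all SP samples. Its difference of 1.96 did not pass (adjusted p = 0.165 by limma). Probe sets of Gzmc, Gzmd, Gzmf and Gzmg, granzymes of activated killer cells, were at the floor on all ten-cell arrays. Gzma and Gzmk were thus both high in CD8 sample C and both at the floor in D, and sample B had Gzmk without Gzma.

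For genes that load, mature and release granules, of 18 tested probe sets of this list, none was higher in CD8 and 2 were lower, with a median difference of -0.25 against -0.04 over all 6823. Of all 6823, 205 (3.0%) were higher and 193 (2.83%) lower. Of the 2, that of Ctsl entered the test through SP arrays alone, so its direction was fixed by that entry. Ctsl, the lysosomal protease cathepsin L, had SP levels of 7.47 to 10.11 and lay at the floor in all CD8 samples (difference -1.68, adjusted p = 0.0235 by limma), a call lost without any 1 of the 3 CD8 samples (adjusted p between 0.0821 and 0.0862), with a floor of 8 (0.16), with no filter (0.0682), with the sample as a random block (0.0541), with the array number as a replicate block (0.0678) and by the methods' t-test (0.19). Lamp2, a lysosomal membrane protein, had a difference of -2.72 (adjusted p = 0.00703 by limma) by 1 of its 2 probe sets and of -1.58 by the other, which did not pass (adjusted p = 0.437). Srgn, serglycin, had levels of 9.76 to 11.55 in SP and 8.68 to 10.43 in CD8 samples, and Lamp1, the membrane protein that marks degranulation, 9.84 to 11.55 and 10.90 to 11.33, and neither passed. Serpinb9, an inhibitor of granzyme B, was at 11.57 in LSP sample B and 7.38 in CD8 sample B and at the floor in the other samples.

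Among NK-type receptors, 9 of 19 probe sets were tested and 1 was higher in CD8, as were 205 (3.0%) of all 6823 tested. That probe set entered the test through CD8 arrays alone, so its direction was fixed by that entry. Klra6, a lectin-like receptor of the Ly49 family, had levels of 9.59, 8.90 and 8.09 in CD8 samples B, C and D and was at the floor in SP (difference at least 1.86, adjusted p = 0.0139 by limma), but did not pass without CD8 sample C (adjusted p = 0.0584), with a floor of 8 (0.163) or on arrays with positive values alone (0.186). Its probe set is of a kind designed over several similar genes, so members of this family are uncertain. Cd160, a receptor of intestinal and memory CD8 T cells and NK cells, was at 10.85 in CD8 sample B, 8.36 in C and the floor in D, and Klra3 at 9.82 in C alone, and neither passed. The partner chain of CD94, Klrc1, and the activating receptor Klrk1 were at the floor on all ten-cell arrays, in contrast to Klrd1 itself.

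None of the death ligands and secreted effectors passed, and each that appeared in CD8 did so in 1 or 2 samples. Fasl, the Fas ligand, was at 9.78 in CD8 sample B and 9.32 in D and at the floor in C, and Ifng, interferon gamma, at 9.90 in C alone. Lta, lymphotoxin alpha, was at 8.71 in B alone by 1 of its 2 probe sets. Ccl4, a chemokine related to Ccl5, was at the floor in CD8 and above it in 5 of 6 SP samples, up to 9.20 in LSP sample B, with a difference of -0.71 (adjusted p = 0.41 by limma).

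Of the transcription factors and cytokine receptors, 8 probe sets were tested and none passed. Stat4, which relays interleukin 12 signals, had levels of 10.22 to 11.11 in CD8 and 9.08 to 11.61 in SP samples. By the probe set high in LSP sample M, Eomes had levels of 9.38, 9.27 and 7.99 in CD8 samples B, C and D (difference 1.19, adjusted p = 0.584 by limma). Of the partners of the 8 genes, Ccr1, Ccr3 and Igf2r, a receptor that takes up granzyme B, were at the floor on all ten-cell arrays, and none of the 3 probe sets tested passed.

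Over the 9 ten-cell samples the profile most like the mean level of the 7 tested granule genes was that of Cd2, an adhesion receptor of T and NK cells, with a Pearson r of 0.985. Next were Acp5, a tartrate-resistant acid phosphatase, Septin1, a cytoskeletal GTPase, Pip4k2a, a lipid kinase, and Cd8b1, the CD8 beta chain, each with r = 0.982. All 5 were at or near the floor in SP, with no SP sample above 7.33, and between 9.20 and 12.38 in CD8 samples. The samples form 2 clusters, CD8 and SP, so these r values, over 9 samples and 6112 probe sets compared, largely describe that separation and carry no test.

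In single SP cells and SCE, 7 of the 8 genes stayed under the detection level of 9 on all 17 arrays. Prf1 had log2 levels of 5.40 to 8.17 (median 6.99) in the 12 single cells and 4.95 to 6.85 (median 5.69) in the 5 SCE. Gzmb had 3.42 to 6.95 (median 5.32) and 3.68 to 6.21 (median 5.40), and the highest single-cell levels of the other 5 genes were 7.64 for Gzma, 7.33 for Gzmm, 7.53 for Crtam, 7.79 for Klrd1 and 7.16 for Ccl5.

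**Figure D4:**
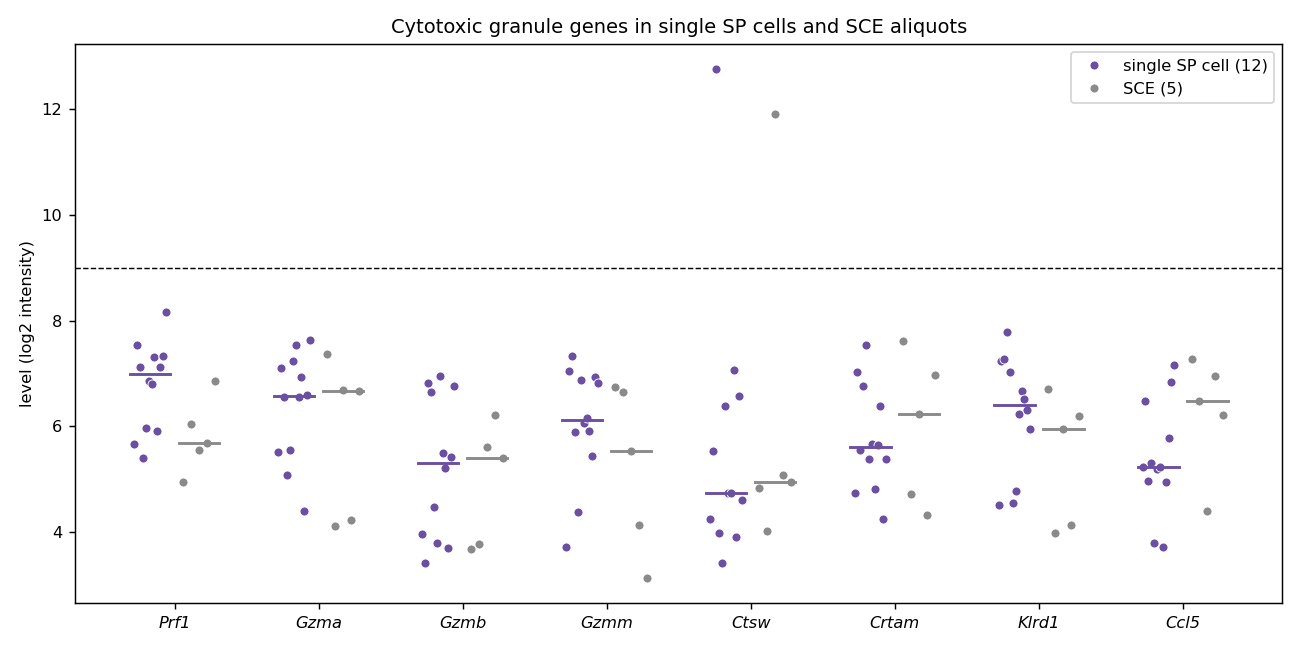
Levels of the 8 genes (log2 intensity, no floor) in 12 single SP cells and 5 SCE. Points are arrays, short bars are medians and the dashed line is the detection level of 9. Ctsw lies above it in single cell C (12.75) and SCE aliquot C (11.90), and no other point does.

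Ctsw was the exception. Single cell C gave an intensity of 6892.9 and the other 11 cells between 10.7 and 134.8, and SCE aliquot C gave 3825.8 and the other 4 aliquots between 16.2 and 33.8. A strong Ctsw signal thus appeared in 1 of 12 cells and in 1 of 5 aliquots of a lysate that is the same for all 5. Of 4215 probe sets with any single cell at detection, 1378 (32.7%) were detected in exactly 1, and 294 of these (21.3%) also in exactly 1 SCE, and Ctsw was 1 of 8 probe sets detected in single cell C alone and SCE aliquot C alone. The labels do not link this cell and this aliquot beyond the letter, and other pairs of a cell and an aliquot were not counted. The 12 T-cell probe sets summed to 596.5 in single cell C, where the 12 single cells ran from 474.4 to 2255.2. In SCE aliquot C they summed to 661.8, the lowest of the 5 SCE, which ran up to 1157.7. By its named probe set Cd3d was at log2 levels of 3.41 in single cell C and 1.89 in SCE aliquot C. The ranges given for the single cells include cell C, and the part of other cells in the Ctsw signal was not tested. NK markers summed to 429.2 in single cell C (range 172.9 to 728.3), and stem cell markers to 4442.2 (range 1573.2 to 10561.5), with Lmo2 at 9.83, the lowest of the 12 cells, Meis1 at 11.42, the highest, and Procr at 7.21 and Tie1 at 6.99, both under detection, by the probe sets named by rule. By the same probe sets Procr was detected in 2 and Tie1 in 7 of the 12 single cells.

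No test separated the single cells from the SCE for Ctsw. Its mean level was 5.66 ± 2.51 (SD, n = 12) in single cells and 6.16 ± 3.24 (SD, n = 5) in SCE, a difference of -0.49 with a standard error of 1.35 (adjusted p = 0.974 by limma over 4659 probe sets, of which 2, or 0.0429%, passed and 265 had an unadjusted p under 0.05). A wider spread around the median in single cells did not pass (exact 1-sided permutation p = 0.496 over 6188 ways to divide the 17 arrays), and over 4215 probe sets 0 (0%) passed, with 390 at an unadjusted p under 0.05. The share of variance between cells, by maximum likelihood against the technical variance of the SCE, was estimated at 0.00. These values depended on SCE aliquot C: without it the difference was 0.94 (adjusted p = 0.961 by limma), the exact permutation p of the spread was 0.0484 (adjusted p = 0.568) and the share was 0.97. Ctsw entered the spread test through single cell C alone. Without SCE aliquot C that cell was the only high array left. The wider spread and the high share then follow from that entry, and no conclusion is drawn from them. Single cell C, at a level of 12.75 with the next cell at 7.07, was not left out in any fit. How far the values depend on that cell was not tested. Ctsw was at the floor in all 6 SP pools, and these 2 of 17 amplifications were the SP material in which it was detected.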

How the data were processed

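Transcripts of 10 cells, of single cells or of lysate aliquots were amplified by global single-cell RT-PCR, in which short reverse transcripts of mRNA 3′ ends are tailed and amplified by PCR, and were measured on Affymetrix MG-U74Av2 arrays. The authors deposited 1 table of linear intensities for 35 arrays. Their methods describe RMA levels, which these intensities are not, and how they were made is not given in the sources used here. No sequencing depth applies to arrays, and the number of samples limits the precision.

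Of 12488 probe sets, 66 controls were left out. Genes were taken from the platform annotation, which gives 10833 probe sets a single gene, 396 several and 1193 none. Ten-cell levels were set to a log2 floor of 7, duplicate arrays were averaged, and probe sets with any array over the floor entered a model with a mean for each population (limma 3.58.1, R 4.3.3). The contrasts were CD8 minus the mean of LSP and USP, and LSP minus USP. Single cells and SCE were compared with limma on log2 intensities for probe sets at 9 or above on at least 1 array, and by an exact permutation test of spread. Adjusted p-values are Benjamini-Hochberg values over each full set of tested probe sets. Promoter windows were searched in Python 3.11.15 (numpy 2.4.6, pandas 2.3.3), and plots were drawn with matplotlib 3.10.9. The limma contrasts and the permutation test of spread were also run on simulated data, and the other tests were not.

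The 8 genes, the related lists, the floor and the detection level were chosen with earlier results of these data known. The text names all probe sets of the 8 genes, of each related or marker list up to 4 probe sets that passed with the largest differences and up to 2 of the other direction, the 5 probe sets most like the mean of the tested genes, and the markers. Other related genes were named after their values were seen. Alternatives were other floors, filters and detection levels, quantile normalization, all arrays with the sample as a random block, and the array number as a block. Further ones were the methods' t-test, arrays with positive values alone, and leaving out each ten-cell sample or each SCE. No single cell was left out. Same-numbered arrays of different samples did not deviate together (correlations of -0.18 to 0.25 over 36 pairs of samples), so the numbers pair nothing.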

Additional observations from a re-analysis of the deposited data

Results flagged for a closer look

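Ctsw in SCE aliquot C, at a log2 level of 11.90, stood far from the other 4 aliquots, which lay between 4.02 and 5.08. The gap was 0.865 of the whole range, above the critical value of 0.71 of Dixon's test for 5 samples. Of the 8 genes tested in this way Ctsw alone passed. Chance flags about 1 in 20 groups where levels are normally distributed, which was not tested for these levels.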

How the results depend on the processing

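Of the 8 genes, 5 were higher in CD8 in the reported fit, and 4 or 5 in every alternative but a filter on a mean level of at least 8, which tests 3 of the genes and calls 2. Leaving out each ten-cell sample gave 4 to 5. Prf1, Ctsw, Crtam and Klrd1 passed in all alternatives that tested them. Probe sets called in CD8 against SP numbered 398, of which 205 were higher and 193 lower in CD8. They were 214 (119 and 95) with no filter, 661 (377 higher) with the sample as a random block and 1606 (416 and 1190) on arrays with positive values alone, where LSP and USP have 1 sample each and are assumed to vary like CD8. The array number as a replicate block gave 639 (362 higher), and 5 of the 8 genes were called. No other pairing was fitted, as shared animals or sorts are not given. Leaving out a sample gave 254 to 417 (155 to 204 higher, 95 to 239 lower), with 274, 254 and 257 without CD8 B, C and D. The methods' t-test gave 1121 at their threshold and 310 after adjustment in CD8 against SP, and 185 and 0 in LSP against USP. LSP against USP had 7 calls, 1 at a mean level of at least 8, 31 with the sample as a random block, 27 with the replicate block, 1196 on arrays with positive values alone and 0 to 31 when a sample was left out, and none of the 8 genes in any of these. The Ccl5 difference there was -1.23 to 1.59 when a sample was left out, -1.23 without LSP sample M and -0.26 without USP sample O or Z. Single cells against SCE had 2 calls and 1 to 5 when an SCE was left out. With an SCE left out the Ctsw difference was -1.03 to 0.94 and its difference in spread -0.52 to 1.22, against -0.11 with all, and both were highest without SCE aliquot C. The cause of these changes was not tested.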
